A study of Mus musculus with 8 samples.

Results

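P4-ATPase lipid flippases and their shared subunit Tmem30a were followed in microvessels of the newborn mouse brain. The group comprised 8 genes, namely Atp10d, Atp10a, Atp8a1, Atp11a, Atp11b, Atp9a, Atp9b and Tmem30a, out of 18194 named genes on the array. They were read by 26 of the 45101 probe sets, every one annotated to a single symbol. Mutant brains carried the D849V knock-in allele of Pdgfrb, which encodes a PDGF receptor beta of pericytes that signals without ligand, and control brains were wild type. All mice were at postnatal day 1 on a mixed 129S/J background. Vessel fragments with their pericytes were pulled out of each dissociated brain by beads against PECAM, an endothelial surface protein, and each of the 4 mutant and 4 control brains gave 1 array. The genes were chosen with this comparison already known: Atp10d was selected on its lower value in mutants, and its relatives joined it as a family. The mutant and control values of the members are therefore a description and support no claim about the family.

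P4-ATPases are membrane pumps that use ATP to move lipids from the outer or luminal leaflet of a membrane to the cytosolic leaflet. They keep phosphatidylserine and phosphatidylethanolamine on the cytosolic side, a state that scramblases undo in activated or dying cells, and they help to form vesicles at the Golgi apparatus and endosomes. Most of them leave the endoplasmic reticulum only when bound to a CDC50 protein, of which Tmem30a (CDC50A) is the widely expressed one. From work on human proteins, ATP10A carries phosphatidylcholine and glucosylceramide, ATP10D carries glucosylceramide, ATP8A1, ATP11A and ATP11B carry aminophospholipids, and ATP9A and ATP9B work without a CDC50 subunit. The gene table of RefSeq for the C57BL/6J assembly lists Atp10d as a transcribed pseudogene and the other 7 members as protein-coding. C57BL/6J mice are known to carry a premature stop codon in Atp10d, and which Atp10d alleles these brains carried was not analysed here.

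Promoter windows of 300 bases around a start site, most of each upstream of it, were at hand for 6 of the members, 9 windows in all (RefSeq, GRCm38.p6). The window of Atp11b, the second member whose groups did not overlap, is shown at chr3:35753813-35754112 on the plus strand. That of Atp10a, the tested gene in the same subclass as Atp10d, is shown at chr7:58657952-58658251 on the plus strand. The Atp10a window lies inside the annotated gene, past its annotated start, while the Atp11b window spans the annotated start of Atp11b. Capitals mark the GC box GGGCGG on either strand, a letter pattern that Sp1-type factors can bind; overlapping matches run together.
Atp11b: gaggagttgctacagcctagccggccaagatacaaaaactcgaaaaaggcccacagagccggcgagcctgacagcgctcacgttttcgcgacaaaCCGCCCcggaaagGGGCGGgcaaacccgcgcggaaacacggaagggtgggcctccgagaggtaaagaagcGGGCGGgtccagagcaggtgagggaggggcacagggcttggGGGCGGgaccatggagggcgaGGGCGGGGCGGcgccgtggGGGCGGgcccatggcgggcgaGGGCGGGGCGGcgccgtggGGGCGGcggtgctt
Atp10a: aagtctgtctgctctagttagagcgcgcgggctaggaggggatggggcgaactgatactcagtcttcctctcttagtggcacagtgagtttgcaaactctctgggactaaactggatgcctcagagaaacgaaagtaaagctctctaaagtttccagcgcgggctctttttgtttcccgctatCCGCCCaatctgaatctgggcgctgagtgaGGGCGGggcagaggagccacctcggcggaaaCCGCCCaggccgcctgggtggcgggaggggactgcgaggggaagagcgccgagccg
The Atp11b window held 10 GC boxes at 70.7% G and C, and the Atp10a window held 3 at 59.3%, where the median of all 32851 windows was 52.7%. GC boxes were found in 6 of the 9 member windows, including at least 1 window of Atp8a1, Atp9a and Atp11a, against 35.7% of all windows. Several of the 9 windows were of Atp9a, some with and some without a GC box, and the window of Tmem30a held none. The windows were also searched on both strands for the interferon response core GAAANNGAAA and the STAT pattern TTCNNNGAA. Neither was present in any of the 9 member windows, none of which was of Atp10d or Atp9b, against 3.44% and 8.3% of all windows. These are letter matches in short windows and say nothing of factor binding.

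The deposited values are log2 GCRMA values per probe set, a scale on which 1 unit is a doubling and dim probe sets collect at a floor of 2.18. Over all probe sets, Pearson correlations between arrays were 0.988 to 0.995 within groups and 0.977 to 0.991 between them. Of 11446 genes bright enough to test, 524 (4.58%) passed limma's test at a Benjamini-Hochberg adjusted p of 0.05, and the median difference of all tested genes was -0.11. Pdgfrb itself, by its brighter probe set, averaged 11.84 ± 0.21 (SD, n = 4) on the mutant arrays and 12.85 ± 0.05 (SD, n = 4) on the control arrays. Microglia and macrophage markers were higher in mutants, in 11 of 13 tested genes; their mean level per array spanned 8.49 to 9.34 in mutants and 6.67 to 7.57 in controls, with Itgam at the floor. Of 15 endothelial markers 1 fell and none rose, with mean levels from 11.33 to 11.83 in mutants and from 11.75 to 12.09 in controls. Of 12 pericyte markers, Pdgfrb among them, 1 rose and 1 fell, at 10.11 to 10.51 in mutants and 10.24 to 10.59 in controls. None of the 10 neuron markers passed, at 7.30 to 8.55 in mutants and 6.93 to 8.18 in controls. Which cells carried the flippase transcripts, and the part of these markers in the differences below, was not tested; in such mixed fragments fewer cells of a type and less RNA per cell cannot be told apart.

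Of the 8 flippase genes 1 passed, Atp10d, and none of the other 7 did. Its mutant signal was 4.38-fold lower, while the differences of the other 7 genes ran from -0.36 to 0.27 on the log2 scale. Against this 1 of 8, 4.58% of all tested genes passed in either direction and 1.92% passed as lower; since Atp10d was selected on this value, nothing follows from the share. The median difference of the members was -0.14, and -0.10 without Atp10d, against -0.11 for all tested genes. At the level of probe sets, 18 of the 26 were bright enough to test, meaning above 4 on at least 4 arrays. All 8 genes were represented among them, 17 of the 18 were above 4 on all 8 arrays and 1 was above it on 7. The remaining 8 included 5 at the floor on every array. When every probe set was tested singly, 1 of the 18, that of Atp10d, passed, against 2.63% of 22310 probe sets. In that fit Atp10d kept its call in 1 of the 8 fits with an array left out, the one without mutant array 3, and lost it with array weights.

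**Figure D1:**
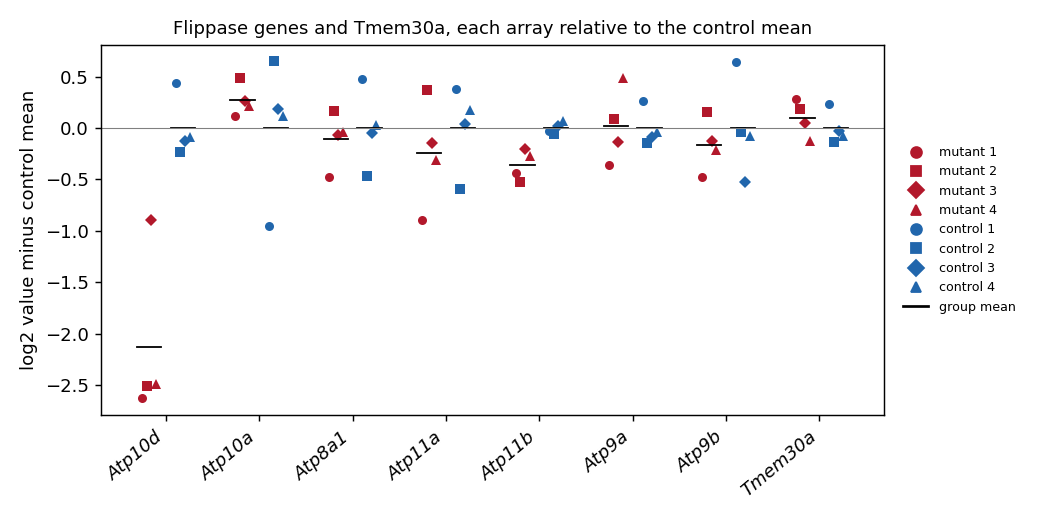
Log2 value of the brightest probe set of each flippase gene and Tmem30a on each array, minus the mean of the control arrays; points are arrays, with mutants in red on the left and controls in blue on the right of each gene, and bars are group means. In Atp10d 3 mutant arrays lie from -2.63 to -2.49 and the mutant 3 array at -0.90, below every control array; in Atp11b the mutant arrays lie from -0.53 to -0.20, and in the other genes the groups overlap.

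Atp10d, in human a glucosylceramide flippase, was read by 1 probe set. It gave 6.40, 6.52, 8.13 and 6.54 on mutant arrays 1 to 4, against 9.47, 8.80, 8.91 and 8.94 on control arrays 1 to 4. The groups did not overlap, but the mutants were not alike: arrays 1, 2 and 4 lay close together, and array 3 stood 1.64 above their mean and 0.67 below the lowest control. The mutant mean was 6.90 ± 0.82 (SD, n = 4) and the control mean 9.03 ± 0.30 (SD, n = 4), a difference of -2.13 (SE 0.378, 95% interval -3.00 to -1.27). The adjusted p was 0.0163 in limma's test across all genes, 1 of the values by which the gene was chosen. Without mutant array 3 the difference was -2.54, a signal 5.83-fold lower, while mutant array 3 on its own was 1.86-fold lower than the control mean. Leaving out mutant array 2, control array 1 or control array 4 took the adjusted p to 0.0529, 0.0531 or 0.0527. With array weights, which gave mutant array 3 a weight of 6.60 against 0.357 to 0.688 for the other mutants, the difference was -1.15.

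In Atp10d mutant array 3 stood 64.6% of the way from the mean of the other mutants to the mean of the controls. Over the 220 genes that passed as lower, Atp10d among them, the median of this measure was 8.1%. In 58 of the 220 mutant array 3 was the highest mutant. Those genes were taken by the same test, so the median describes them only. Correlations of mutant array 3 with the other mutant arrays over all probe sets were 0.992 to 0.995. All pairs inside the groups, its own pairs included, spanned 0.988 to 0.995. The mean level of microglia markers on mutant array 3 was 9.28 and that of endothelial markers 11.8, both inside the span of the other mutants.

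The 5 tested genes whose values followed Atp10d most closely over the 8 arrays were Zfp746 (Pearson r = 0.989), Atg4c (0.977), Gabpa (0.975), Nudcd1 (0.974) and Git2 (0.971). Atg4c is a protease of autophagy, Gabpa an ETS transcription factor and Git2 a GTPase-activating protein for ARF proteins. With the group means taken out, r was 0.847 to 0.947 in these 5, and in each of them mutant array 3 was the highest mutant. Their differences were far smaller than that of Atp10d, from -0.52 in Git2 to -0.29 in Zfp746, and mutant array 3 lay 0.20 to 0.31 above the mean of the other mutants. Of the 5, Gabpa and Git2 passed in limma's test (adjusted p = 0.0449 and 0.0265). They were picked from 11446 genes for their likeness, so the correlations describe this choice.

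Of the 6 tested genes nearest to Atp10d in gene order along its chromosome, 3 on each side, 1 passed, against 4.58% of all tested genes. Before it lie Gabra4 and Gabrb1, subunits of GABA receptors, and Commd8, and after it Nfxl1, the tyrosine kinase gene Tec, and Slain2, a microtubule-associated gene. Slain2 passed as lower, at 9.72, 9.73, 9.66 and 9.78 on the mutant arrays against 10.09, 9.95, 10.13 and 10.13 on the control arrays. Groups were apart, as in 14.5% of all tested genes. The Slain2 difference was -0.35 (SE 0.0785, limma adjusted p = 0.0449), and mutant array 3 was its lowest mutant, unlike in Atp10d. The other 5 neighbours differed by -0.12 to 0.40 and did not pass, with overlapping groups in each.

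**Figure D2:**
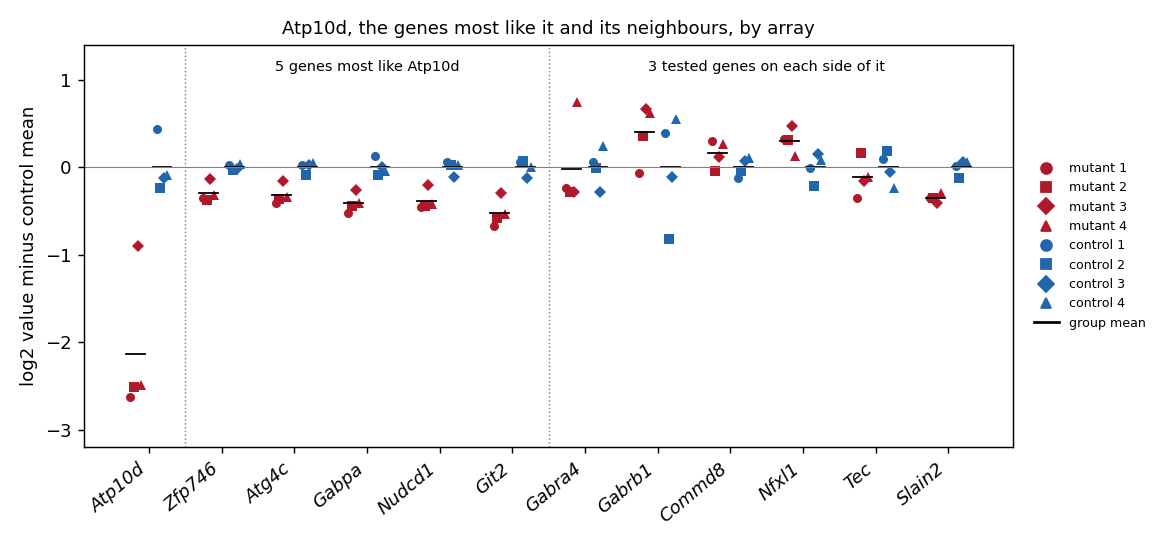
Log2 value minus the control mean on each array for Atp10d, the 5 genes with the highest correlation to it and the 3 tested genes on each side of it in gene order; symbols are arrays, mutants in red left of controls in blue, and bars are group means. Atp10d spans -2.63 to -0.90 on the mutant arrays, the genes most like it -0.67 to -0.13, and among the neighbours the mutant arrays lie below all control arrays in Slain2 alone.

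Atp10a, the other tested gene of its subclass, was read by 3 probe sets above the filter, which did not show the change of Atp10d. The brightest gave 6.88, 7.24, 7.02 and 6.98 on mutant arrays 1 to 4, against 5.81, 7.41, 6.95 and 6.88 on control arrays 1 to 4. The groups overlapped, and control array 1 alone was low. The difference was 0.27 (95% interval -0.42 to 0.96). The second probe set differed by 0.31 (-0.06 to 0.67) and the third, with the opposite sign, by -0.08 (-0.80 to 0.63), with the intervals of such further probe sets taken from the fit of all probe sets. The suffixes of the first 2 mark probes that can match further transcripts, and the fourth probe set lay at the floor on every array.

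Atp8a1, Atp11a and Atp11b encode pumps for phosphatidylserine and related aminophospholipids. Atp11b had the smallest standard error of the members, with 9.23, 9.14, 9.47 and 9.40 on mutant arrays 1 to 4 against 9.64, 9.61, 9.69 and 9.74 on control arrays 1 to 4. All mutants were below all controls, as they were in 10.4% of all tested genes, and groups were apart in either direction in 14.5% of them. The difference was -0.36 (SE 0.096, 95% interval -0.58 to -0.14), 1.28-fold, and it did not pass (limma adjusted p = 0.0815). It passed with array weights (limma adjusted p = 0.0291), a setting in which 3158 of the 11446 tested genes passed. Among the 18 probe sets, Atp10d and Atp11b were the 2 whose groups were apart, against 11.3% of all probe sets.

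Atp11a gave 8.69, 9.96, 9.44 and 9.27 on the mutant arrays and 9.96, 8.99, 9.63 and 9.76 on the control arrays. The groups overlapped throughout, at SDs of 0.52 in mutants and 0.42 in controls, and the difference of -0.24 had an interval from -0.91 to 0.42. It was -0.03 without mutant array 1 and -0.45 without mutant array 2. Atp8a1 had 4 probe sets above the filter that did not move together. The brightest read 7.52, 8.16, 7.93 and 7.96 in mutants and 8.47, 7.53, 7.95 and 8.03 in controls, a difference of -0.10 (-0.59 to 0.38). The next 2 differed by -0.05 and -0.15. The dimmest of the 4 went the other way, at 6.88, 7.26, 6.15 and 6.67 in mutants against 6.54, 5.84, 6.24 and 5.96 in controls, a difference of 0.60 (0.02 to 1.17, limma adjusted p = 0.29 over all probe sets). That probe set showed mutant array 3 inside the controls, and the other mutants above them.

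Atp9a and Atp9b encode the pumps of endosomes and the Golgi apparatus that need no CDC50 subunit. The brighter probe set of Atp9a read 8.39, 8.83, 8.61 and 9.24 on the mutant arrays and 9.01, 8.60, 8.66 and 8.71 on the control arrays, a difference of 0.02 (-0.40 to 0.44). Its second probe set differed by 0.37 (-0.38 to 1.12), with an SD of 0.71 among controls. Atp9b read 6.92, 7.55, 7.27 and 7.18 in mutants and 8.04, 7.36, 6.87 and 7.32 in controls, a difference of -0.17 (-0.72 to 0.39). In Atp8a1, Atp9a, Atp9b and Atp11a alike, on the brightest probe set, mutant array 1 was the lowest mutant and control array 1 the highest control. Atp10d had this order as well. The same order was seen in the mean of the choroid plexus markers, with mutant array 1 lowest among mutants at 9.01 and control array 1 highest among controls at 10.64. Mutant array 1 was also the lowest mutant in the means of the neuron (7.30), astrocyte (9.66) and oligodendrocyte (6.26) markers, where control array 1 stood at 8.11, 10.42 and 7.03, second among controls; the part of these markers in the spread was not tested.

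Tmem30a, the subunit that most of these pumps need to leave the endoplasmic reticulum, was the member with the most probe sets above the filter, 5 in all. The brightest read 11.19, 11.09, 10.96 and 10.78 on the mutant arrays against 11.14, 10.77, 10.88 and 10.83 on the control arrays, a difference of 0.10 (-0.18 to 0.38). The next differed by 0.27 (0.03 to 0.52), at 10.92, 10.79, 10.76 and 10.53 in mutants against 10.59, 10.54, 10.35 and 10.43 in controls (limma adjusted p = 0.26 over all probe sets). The other 3 differed by -0.16, -0.06 and -0.88. The last of these was the dimmest of the 5, and it read 3.19 on mutant array 1, under the filter, beside 5.02 to 5.84 on the other mutants. With the mean of all Tmem30a probe sets the difference was -0.15, against 0.10 on the brightest.

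**Figure D3:**
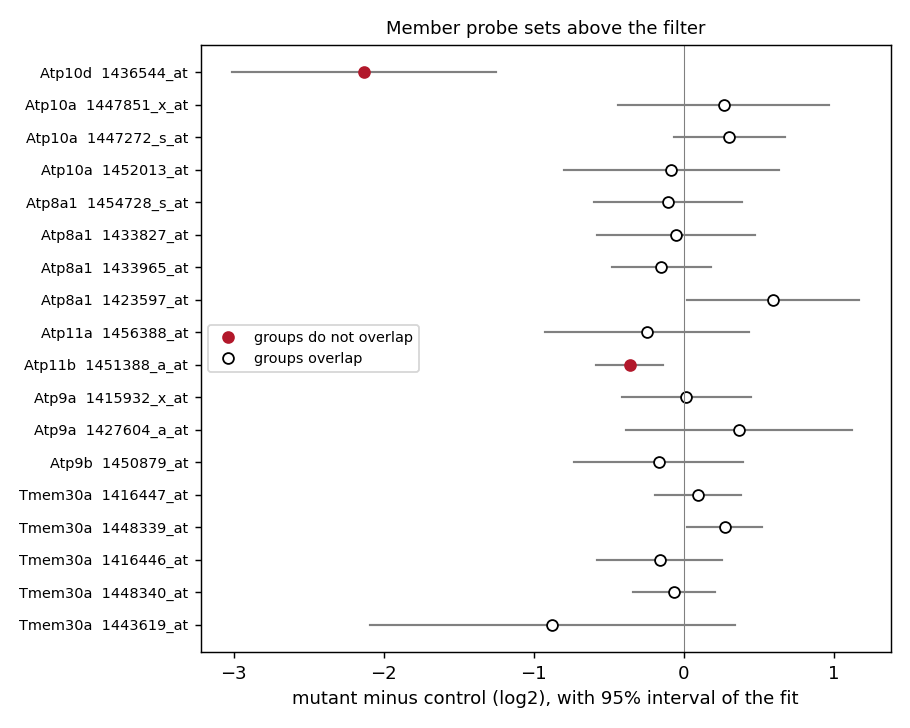
Mutant minus control difference (log2) of each of the 18 member probe sets above the filter, as points with the 95% interval of the fit across all probe sets; filled red points mark the probe sets of Atp10d and Atp11b, whose groups did not overlap. The interval of Atp10d runs from -3.01 to -1.25, and the points of Atp10a, Atp8a1 and Tmem30a lie on both sides of 0.

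The rest of the family was mostly dark on these arrays. A probe set with a single symbol was at hand for 8 further P4-ATPase and CDC50 genes, and 3 of those 8 were bright enough to test. Atp8b3, Atp8b4, Atp10b and Tmem30c lay at the floor on every array, and Tmem30b exceeded 4 on 2 arrays. None of the 3 passed in limma's test, against 4.58% of all tested genes. An unadjusted p under 0.05 was found in 1 of the 3, against 20.6% of all tested genes. That gene was Atp8b1, a flippase needed for bile secretion in the liver, at 6.79, 6.69, 6.60 and 6.06 in mutants against 5.70, 6.06, 6.04 and 5.55 in controls. Mutant array 4 reached down to the highest control. The Atp8b1 difference was 0.70 (SE 0.187, limma adjusted p = 0.083), and without mutant array 4 it passed. Atp8b2 differed by -0.03 (-0.29 to 0.23), and Atp8a2, a neuronal flippase, by 0.21 (-0.03 to 0.45) close to the filter.

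Genes that act on the same lipids were followed in 6 lists, 60 tested genes in all, of which 1 rose and 2 fell, against 4.58% of all tested genes. Their median difference was -0.11, that of all genes. Scramblases move lipids both ways across a membrane. Among 11 genes listed as phospholipid scramblases, Plscr1 rose and none fell. Whether each listed product moves lipids was not tested. Plscr1, itself an interferon-induced gene, read 8.23, 8.38, 8.27 and 8.30 in mutants against 7.05, 7.38, 7.32 and 7.23 in controls. All mutants were above all controls, and mutant array 3 lay inside the span of the other mutants; the difference was 1.05 (SE 0.094, limma adjusted p = 0.00029). Among 15 glucosylceramide and sphingolipid genes 2 fell and none rose. Sgms1, a sphingomyelin synthase, read 10.35, 10.60, 10.68 and 10.45 in mutants against 10.99, 10.98, 11.08 and 11.17 in controls, a difference of -0.54 (SE 0.0995, limma adjusted p = 0.0197). Degs1, the desaturase that completes ceramide, read 11.41, 11.55, 11.56 and 11.70 in mutants against 11.88, 12.04, 12.01 and 12.12 in controls, a difference of -0.46 (SE 0.0936, limma adjusted p = 0.0311). In both genes all mutants were below all controls. Neither Sgms1 nor Degs1 passed with the mean of their probe sets, with the replicate block or at a threshold of 0.01, and Degs1 did not when every probe set was tested singly. The call of Sgms1 was also lost without control array 3 or control array 4, and that of Degs1 without any 1 of mutant arrays 1, 2 and 3 or control arrays 2, 3 and 4.

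No gene passed in the 4 other lists in limma's test. Of 6 ABC lipid exporters 3 had an unadjusted p under 0.05, against 20.6% of all tested genes; the brightest, Abca1, an exporter of cholesterol and phospholipid, differed by -0.37 (SE 0.113), and Abcb1a, the drug efflux pump P-glycoprotein of the blood-brain barrier, by -0.52 (SE 0.135, limma adjusted p = 0.0774). Abcb1a passed without mutant array 1, with the mean of its probe sets and with array weights. With array weights 3158 of the 11446 tested genes passed. Of 8 genes of aminophospholipid synthesis none had an unadjusted p under 0.05; Etnk1, an ethanolamine kinase, differed by 0.21 (SE 0.125) and Ptdss1, a phosphatidylserine synthase, by -0.06 (SE 0.089). Of 9 flippase partners and regulators 2 had an unadjusted p under 0.05, a share near the 20.6% of all genes. Their brightest, the sorting nexin Snx3 and the GTPase Arl1, differed by -0.11 (SE 0.09) and by -0.0010 (SE 0.0742). Of 11 genes for the recognition of phosphatidylserine 1 had an unadjusted p under 0.05, again against 20.6%. It was Axl, a receptor tyrosine kinase that binds phosphatidylserine through Gas6, named after its values were seen. Axl read 8.64, 9.13, 8.86 and 8.07 in mutants against 8.53, 7.70, 7.40 and 7.26 in controls. The groups overlapped through control array 1, the difference was 0.95 (SE 0.315, limma adjusted p = 0.141), and it passed without control array 1 and with array weights. The brightest of the list, the annexins Anxa2 and Anxa5, differed by -0.0014 (SE 0.0826) and by -0.07 (SE 0.0842).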

How the data were processed

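RNA of microvessel fragments from 8 newborn mouse brains was hybridised to 1-colour Affymetrix arrays, 1 brain to an array, as biotin-labelled cRNA from 6 ug of total RNA per the labels' protocols. The authors deposited GCRMA values on a log2 scale, per the submitters' processing notes for the method and per the values, 2.18 to 16.49, for the scale; no GCRMA version or options were stated there. GCRMA models background from probe sequence and normalizes by quantiles, so dim probe sets share a floor; a probe set within 0.5 of the lowest value on every array is called at the floor.

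Of 45101 probe sets, 34958 had a single symbol, 932 had several and 9211 had none here. The brightest probe set stood for a gene. Genes above 4 on at least 4 arrays, 11446 in all, were compared two-sided between mutants and controls with limma 3.58.1 (lmFit, eBayes; R 4.3.3), with no covariate. The 22310 probe sets above the filter were fitted likewise, and Benjamini-Hochberg adjustment ran over each whole table. The fit was tested on simulated data. The labels call the samples biological replicates and name no litter, preparation day or scan, so batches were not tested; 4 arrays per group limit the precision.

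The members, lists and rules were chosen with earlier results of these data known. Named were all members, the tested genes of the remaining family, up to 4 passing genes per list or else its 2 brightest, the 5 genes most correlated with Atp10d and 3 tested genes on each side of it. Alternatives were other filters and normalizations, the replicate number as a block, other uses of probe sets, eBayes with trend and robust settings, array weights, a threshold of 0.01 and each array left out in turn.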

Additional observations from a re-analysis of the deposited data

Results flagged for a closer look

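In Atp10d, mutant array 3 read 8.13, apart from the other 3 mutants at 6.40 to 6.54; its gap to the nearest, 6.54, was 0.917 of the range of the group. In 3 further genes 1 control array stood apart from the other 3: Abcb1a on control array 4 at 11.43, with the nearest at 11.58, Etnk1 on control array 2 at 10.79, with the nearest at 10.98, and Snx3 on control array 2 at 13.12, with the nearest at 12.93. These were 4 of 44 groups of 4 arrays examined, and chance sets about 1 in 20 such groups apart.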

How the results depend on the processing

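The Atp10d difference was negative under all 17 alternatives, from -2.54 without mutant array 3 to -1.15 with array weights. Its adjusted p ran from 0.000268 to 0.0709, and the call was lost with no filter (0.0709), with the replicate block (0.064), at a threshold of 0.01 and without mutant array 2, control array 1 or control array 4. Deviations of same-numbered arrays from their group means correlated at r from -0.48 to 0.30, with no shared sign. These values were not compared with those of differently numbered arrays. Whether the numbers pair the samples, as by litter or preparation day, was not tested. Member genes past the threshold numbered 1, 0 with no filter, the replicate block or the 0.01 threshold, 2 with array weights (Atp10d and Atp11b), and 0 to 1 with 1 array left out. Member probe sets gave 1, and 0, 0, 0 and 2 in those settings (1 each of Atp11b and Tmem30a with weights), and 0 to 1 with 1 array left out, 1 only without mutant array 3. Other family genes gave 0, 1 with array weights and 0 to 1 with 1 array left out. Pathway genes gave 3, 1 with the replicate block, 19 with array weights, 1 at 0.01 and 1 to 4 with 1 array left out. Genes past the threshold gave 524, 259 with the replicate block, 3158 with array weights, 246 at 0.01 and 264 to 539 with 1 array left out, the lowest being 264 without mutant array 3, 306 without control array 4 and 323 without control array 3. Probe sets gave 586, and 303, 3937, 322 and 305 to 520. The cause of these changes was not tested; fewer arrays and the 18194 genes fitted with no filter change the fit itself, and the threshold of 0.01 only where it is read. Differences of Atp11a (-0.45 to -0.03) and Atp11b (-0.41 to -0.28) were negative in all 17 alternatives, and those of the other 5 genes changed sign in 1 or more.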

Other observations

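Groups were apart in 13 of the 60 lipid genes, against 14.5% of all tested genes. Of these, 5 are named here after their values were seen. Plscr2, of the scramblase list, read 6.94 to 7.35 in mutants and 6.19 to 6.70 in controls. Plekha8, a glucosylceramide transfer gene, Sgms2, a sphingomyelin synthase, Sptlc1, of the first enzyme of sphingolipid synthesis, and Abca3, a lipid exporter, differed by -0.48, -0.72, -0.56 and -0.36. None of the 5 passed in limma's test (adjusted p from 0.0561 to 0.121). Plscr2 passed with the filter at 6. All 5 passed with array weights, a setting in which 3158 of the 11446 tested genes passed. Sptlc2, which encodes a further subunit of the enzyme of Sptlc1, went the other way, at 9.31 to 9.77 in mutants and 9.03 to 9.35 in controls. Its groups overlapped, the difference was 0.42 (SE 0.126, limma adjusted p = 0.109), and it passed without mutant array 4 and with array weights. Ugcg, the glucosylceramide synthase and likewise named after its values were seen, read 7.22 to 7.37 in mutants and 7.36 to 7.67 in controls, overlapping, with a difference of -0.17 (SE 0.0949).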
